A study of Mus musculus with 28 samples.

Results

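The genes described are 10 enzymes that build triglyceride and phosphatidylcholine from glycerol phosphate (or, for Mogat1, monoacylglycerol) and fatty acyl-CoA. These are Gpam, Gpat3, Gpat4, Agpat2, Agpat3, Lpin1, Dgat1, Dgat2, Mogat1 and Chpt1, out of 55891 gene identifiers in the tables. They were chosen by name and found through their Ensembl identifiers, and each of the 10 passed the filter on low values in every depot. Bulk RNA-seq of mouse fat compared control libraries, labelled WT, with libraries of an adipose knockout of Fgf13, labelled Fgf13 KO. Inducible knockout was sampled in epididymal fat (ieWAT, 3 control and 3 knockout libraries) and subcutaneous fat (isWAT, 3 and 2), and constitutive knockout in subcutaneous fat (sWAT, 3 and 3) and brown fat (BAT, 3 and 2), all from obese mice on a high fat diet for 20 weeks. A further set of epididymal fat (eWAT, 3 and 3) is labelled by genotype, and its type of knockout and its diet are not stated. The labels give neither the transgene behind the knockout, nor the alleles of the controls, nor the ages, and they do not tie libraries to separate animals, so the p-values measure the spread of these libraries, which may be technical. Values are reads scaled to the library total (CPM) in ieWAT, isWAT, sWAT and BAT and reads also scaled to gene length (FPKM) in eWAT.

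In the glycerol phosphate pathway, a glycerol-3-phosphate acyltransferase (GPAT) adds the first acyl chain, an acylglycerolphosphate acyltransferase (AGPAT) adds the next to give phosphatidic acid, and a lipin removes the phosphate to give diacylglycerol. A diacylglycerol acyltransferase (DGAT) then makes triglyceride, the store of the fat cell, while cholinephosphotransferase turns the same diacylglycerol into phosphatidylcholine, a main phospholipid of membranes and of the lipid droplet surface. In fat the pathway is known for its bond with adipocyte identity: loss of Agpat2, Lpin1 or the droplet protein seipin (Bscl2) causes lipodystrophy in mice.

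Read totals per library were 13490948 to 21246286 for the constitutive sets and 29857189 to 48812592 for the inducible sets, and the depth of eWAT is unknown. Fgf13 was lower without overlap of the groups in ieWAT (a log2 change of -0.70, SE 0.17), isWAT (-0.83, SE 0.12), sWAT (-0.83, SE 0.22) and BAT (-2.13, SE 0.77), whereas in eWAT it was 20.4, 27.6 and 12.9 FPKM in control and 23.1, 17.6 and 27.0 FPKM in the libraries labelled knockout (0.19, SE 0.28). None of these Fgf13 changes passed the adjusted test (limma). The direction of an eWAT change is thus given by the labels alone. Lower values without overlap were held by 19.4% of all genes in isWAT, 12.3% in sWAT and 38.1% in BAT. In ieWAT 5.11% of all genes had no overlap, in either direction. Fgf13 was low in BAT, at 3.01 to 17.6 CPM in control and 0.25 and 1.87 CPM in knockout libraries (4 to 336 reads). The separation of its groups is thus weak evidence of the knockout, most of all in BAT. Adipoq, the adipocyte hormone adiponectin, was at 412 or more (CPM or FPKM) in every library. Ucp1, the uncoupling protein that defines brown fat, was at 4950.4 CPM or more in each BAT library and at 7.13 or less (CPM or FPKM) in every other library.

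Levels of different enzymes can be compared only per length. In the controls of each depot Dgat2, the DGAT linked to newly made fatty acid, was highest, at 1171 ± 86.9 CPM per kilobase of exon in isWAT (mean ± SD, n = 3), 1139 ± 60.7 in sWAT, 767 ± 91.8 in ieWAT and 728 ± 82.8 in BAT, and at 444 ± 108 FPKM in eWAT. Agpat2, the main AGPAT of fat, was next in each depot, with 520.0 ± 24.9 CPM per kilobase in isWAT and 512 ± 32.0 in BAT. The other DGAT, Dgat1, was far below Dgat2, with 81.5 ± 2.56 CPM per kilobase in isWAT and 60.9 ± 2.84 in BAT. Mogat1, which starts triglyceride from monoacylglycerol instead, was lowest in each depot, at 5.38 ± 1.09 CPM per kilobase in ieWAT and 2.76 ± 0.457 in BAT. Between these ends the order differed by depot. Gpam, the mitochondrial GPAT, was at 46.5 ± 9.15 CPM per kilobase in BAT and between 20.2 ± 0.743 (sWAT) and 20.9 ± 2.30 (isWAT) in the 3 white CPM sets, whereas Gpat3, a GPAT of the endoplasmic reticulum, was at 9.86 ± 0.926 in BAT and 33.2 ± 0.975 in sWAT. In sWAT the control ranges of Gpam, Gpat4 (the other GPAT of the endoplasmic reticulum) and Agpat3 overlapped, and so did those of Gpat3 and Lpin1. The tables were normalised separately, so no test was made between depots.

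**Figure D1:**
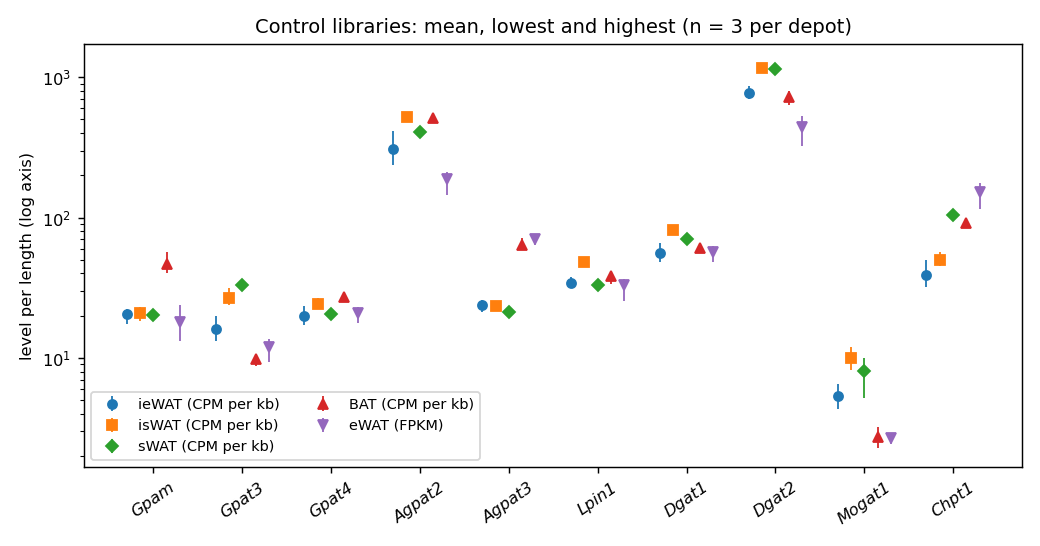
Mean level per length of each enzyme in the control libraries of each depot (log axis; points are means, bars run from the lowest to the highest of 3 libraries; CPM per kilobase of exon, or FPKM in eWAT). Dgat2 and Agpat2 stand at the top and Mogat1 at the bottom in each depot.

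In ieWAT none of the 10 enzymes passed the test (limma, Benjamini-Hochberg adjusted over 14749 genes, threshold 0.05), where 0% of all genes were called. None was under an unadjusted p of 0.05 either, against 2.62% of all genes, edgeR and DESeq2 called 0 of the 10 (0% and 0.217% of all genes), and the groups overlapped for each enzyme, against 5.11% of all genes without overlap. The changes, knockout minus control on the log2(CPM + 1) scale, ran from -0.22 for Lpin1 to 0.17 for Gpat3, with a median of 0.00 beside 0.02 over all genes. Lpin1, the phosphatidic acid phosphatase of fat, was at 314, 313 and 365 CPM in the control and 279, 333 and 243 CPM in the knockout libraries. Dgat2 was at 2143, 2269 and 2684 CPM in the control and 2892, 2669 and 1781 CPM in the knockout libraries. The knockout libraries spanned more than the controls for Dgat2, with replicate 3 below each control and the others near or above the highest one. The 95% interval, not adjusted over genes, was -0.47 to 0.52 for the Dgat2 change and -0.62 to 0.63 for that of Agpat2. Larger changes could also go uncalled in ieWAT, where Fgf13 at -0.70 had an adjusted p of 0.9999 (limma). Beside these values, 6 of 8 T cell markers and 4 of 6 B cell markers were higher at an unadjusted p under 0.05, with summed T cell levels of 19.2 to 51.5 CPM in control and 50.8 to 66.8 CPM in knockout libraries, summed B cell levels of 1173 to 2155 CPM and 3172 to 5268 CPM, and no marker of either list at 0. In bulk tissue, more or fewer cells of a type and more or less RNA per cell cannot be told apart. The part of these markers in the enzyme values was not tested.

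In isWAT the clearest values were a higher Chpt1 and lower Lpin1 and Agpat2, and none of the 10 enzymes passed the adjusted test, where 0.00701% of all genes were called (1 of 14258). edgeR and DESeq2 also called 0 of the 10 (0.00701% and 1.91% of all genes). Chpt1 (ENSMUSG00000060002.15), the Golgi cholinephosphotransferase that makes phosphatidylcholine from diacylglycerol, was at 399.9, 375 and 471 CPM in the control and 542 and 509 CPM in the knockout libraries. Both knockout libraries lay above the highest control, with a log2 change of 0.34 (SE 0.11) and an adjusted p of 0.322 (limma). Lpin1 was at 463, 452 and 475 CPM in the control and 352 and 427 CPM in the knockout libraries. Both knockout libraries were below the lowest control and differed from each other by more than the controls did, with a change of -0.26 (SE 0.10) and an adjusted p of 0.366 (limma). Agpat2 was at 1115, 1051 and 1157 CPM in the control and 1027 and 948 CPM in the knockout libraries, lower in both knockout libraries, with a change of -0.17 (SE 0.09). Such separation was common there: the groups did not overlap for 31.6% of all genes (12.2% higher, 19.4% lower), against 3 of the 10 enzymes, and 13.1% of all genes had an unadjusted p under 0.05, against 2 of the 10 (Chpt1 and Lpin1). The other 7 enzymes had overlapping groups and changes between -0.10 (Mogat1) and 0.03 (Agpat3). Dgat1 had the smallest SE of the 10, at 244, 258 and 245 CPM in the control and 249 and 244 CPM in the knockout libraries, with a 95% interval of -0.19 to 0.16 for its change. The macrophage list was at a summed 1281 to 1819 CPM in control and 1839.8 to 1934 CPM in knockout libraries, with 2 of 10 markers higher at an unadjusted p under 0.05 and none at 0, and 4 of 8 T cell markers were lower at that level (sums of 17.5 to 24.1 CPM and 12.1 to 14.0 CPM, none at 0). All 8 endothelial markers had a negative change, 3 of them at that level, with sums of 2346 to 2627 CPM in control and 2073 to 2164 CPM in knockout libraries and none at 0. Their part in these values was not tested.

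The same direction for Chpt1 and Agpat2 was seen in sWAT, where again none of the 10 enzymes passed (0.0217% of all genes called, 3 of 13816). edgeR and DESeq2 called 0 of the 10 (0.00724% and 0.376% of all genes), and Chpt1 was the only member under an unadjusted p of 0.05, against 9.66% of all genes. Chpt1 was at 832, 917 and 849 CPM in the control and 1031, 1001 and 1156 CPM in the knockout libraries. Each knockout library was above each control, with a change of 0.29 (SE 0.09) and an adjusted p of 0.447 (limma). Agpat2 was at 886, 883 and 842 CPM in the control and 660.5, 838 and 777 CPM in the knockout libraries, with each knockout library below each control, replicate 1 lowest, and a change of -0.20 (SE 0.11, adjusted p = 0.557, limma). The groups did not overlap for 16.1% of all genes (3.8% higher, 12.3% lower) and for these 2 of the 10 enzymes. Dgat2 was at 3401, 3726 and 3405 CPM in the control and 3722, 3456 and 3938 CPM in the knockout libraries, with overlapping groups and a 95% interval of -0.17 to 0.32. Mogat1 had the widest relative spread, from 8.10 to 15.6 CPM in control and 8.93 to 18.1 CPM in knockout libraries. The other 6 enzymes had changes from -0.09 (Lpin1) to 0.07 (Gpam), with overlapping groups. Skeletal muscle markers stood at a mean log2(CPM + 1) of 6.48 and 6.86 in knockout libraries 2 and 3 and 0.70 to 0.86 in the other 4, with 5 of the 10 at 0 in at least 1 library, and 10 of 10 macrophage markers had a negative change, 1 of them at an unadjusted p under 0.05 (sums of 2297 to 2659 CPM in control and 1086 to 2419.6 CPM in knockout libraries, none at 0). All 8 endothelial markers had a negative change, 5 of them at that level, with sums of 1529.7 to 1531 CPM in control and 1131 to 1424 CPM in knockout libraries and none at 0. Their part in these values was not tested. In the 2 libraries with muscle transcripts Chpt1 was at 1001 and 1156 CPM, and in knockout library 1, without them, at 1031 CPM.

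**Figure D2:**
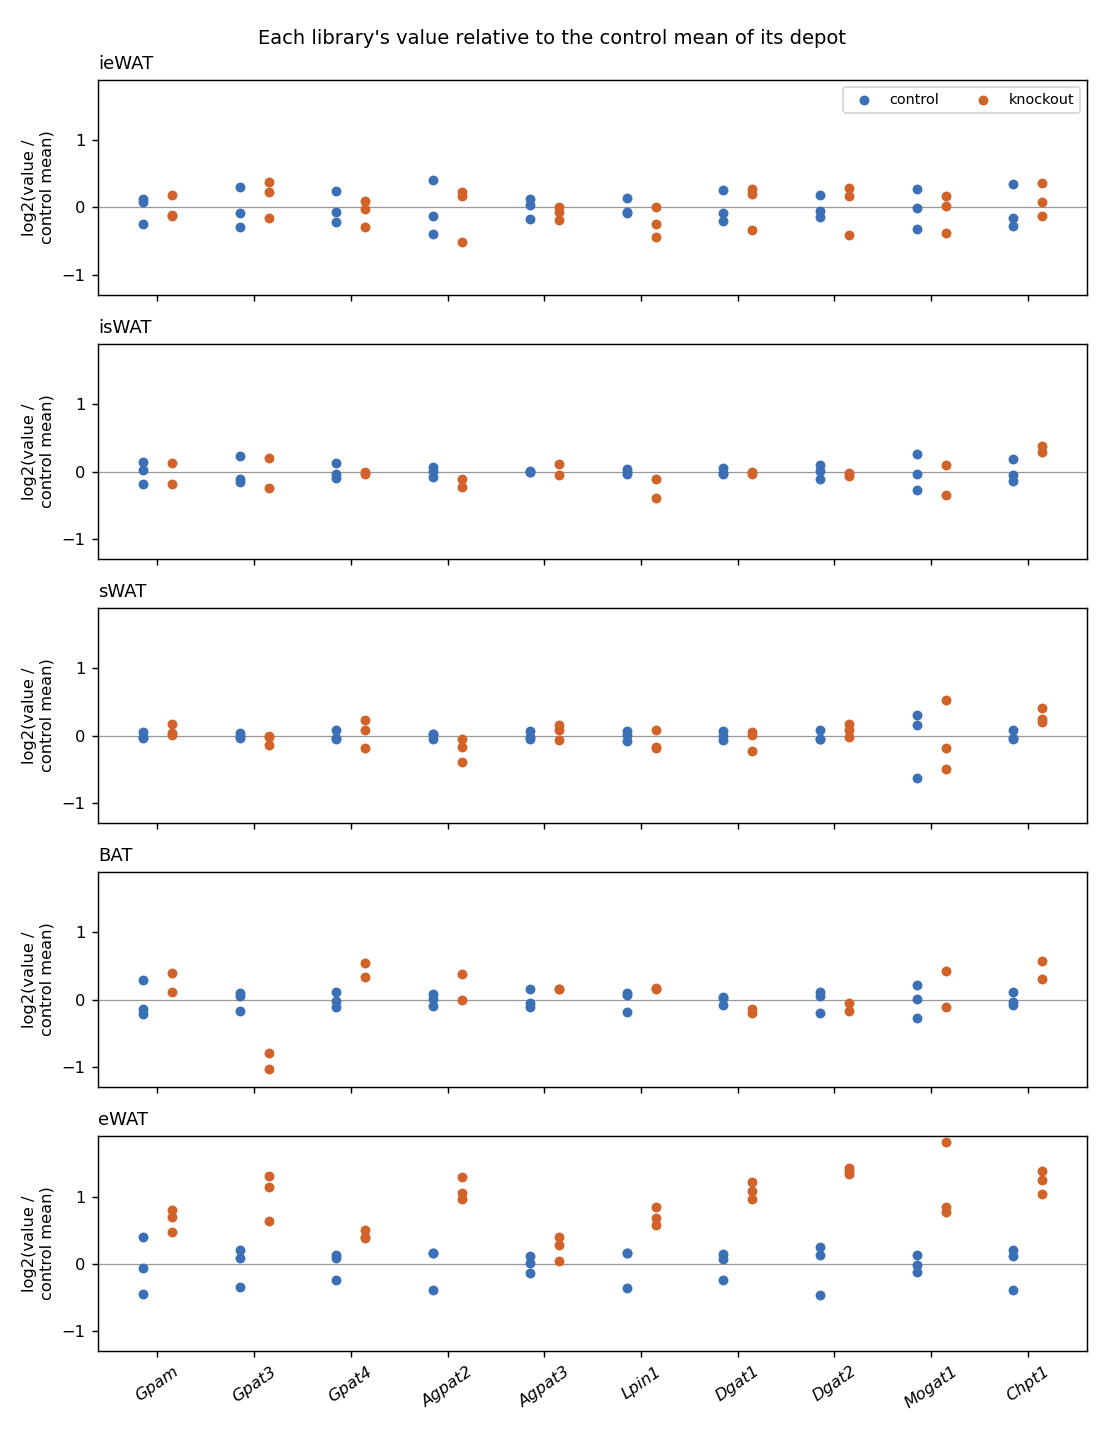
Each library's value of each enzyme, as log2 of its ratio to the control mean of its depot (points are libraries; blue control, orange knockout; the line at 0 is the control mean). Chpt1 lies above each control in isWAT, sWAT, BAT and eWAT, Gpat3 lies below each control in BAT, and 9 of the 10 enzymes lie above each control in eWAT.

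In BAT the GPATs of the endoplasmic reticulum had opposite values, Gpat3 lower and Gpat4 higher in both knockout libraries, and Chpt1 was higher. None of the 10 passed the adjusted limma test (0.00755% of all genes called, 1 of 13253), edgeR called 0 of them and 0% of all genes, and DESeq2 called these 3 and 5.97% of all genes. Gpat3 was at 36.9, 30.8 and 35.8 CPM in the control and 16.9 and 19.9 CPM in the knockout libraries. Both knockout libraries were far below the lowest control, with a change of -0.87 (SE 0.13), a 95% interval of -1.20 to -0.55 and an adjusted p of 0.237 (limma). Gpat4 was at 168, 196 and 179 CPM in the control and 265 and 229.7 CPM in the knockout libraries. Each knockout library was above each control, with a change of 0.45 (SE 0.12) and a 95% interval of 0.16 to 0.74 (adjusted p = 0.237, limma). Chpt1 was at 745, 826 and 721 CPM in the control and 1135 and 945 CPM in the knockout libraries, again without overlap, with a change of 0.44 (SE 0.13, adjusted p = 0.237, limma).

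These 3 values need the background of the BAT libraries. The groups did not overlap for 44.5% of all genes (38.1% lower, 6.37% higher), against 6 of the 10 enzymes (Gpat3 and Dgat1 lower; Gpat4, Agpat3, Lpin1 and Chpt1 higher), and 19.2% of all genes had an unadjusted p under 0.05, against 3 of the 10. The median change of all genes was -0.18, and after TMM scaling it was 0.00. Relative to that shift, with TMM, the change was -0.68 for Gpat3, 0.65 for Gpat4 and 0.65 for Chpt1. Gpam was 0.48, Agpat2 0.39, Lpin1 0.38 and Agpat3 0.37 with TMM, against 0.27, 0.19, 0.17 and 0.17 as deposited, none past the threshold. The DGAT genes turned sign with the scaling, Dgat1 from -0.17 to 0.04 and Dgat2 from -0.10 to 0.10.

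The result in BAT also turns on control library 2. Without it 16.8% of all genes were called and 3 enzymes passed (limma): Gpat3 at -0.95 (adjusted p = 0.00373), Gpat4 at 0.51 (0.0274) and Chpt1 at 0.50 (0.0385). That library had the lowest macrophage list of the controls, at a mean log2(CPM + 1) of 4.26 against 5.73 and 6.53, while both knockout libraries were at 2.95. All 10 macrophage markers were lower in the knockout libraries at an unadjusted p under 0.05, their sum was 308 to 1474 CPM in control and 121 to 123 CPM in knockout libraries, and none was at 0. Fibroblast and progenitor markers summed to 572 to 1926 CPM and 329 to 481 CPM (3 of 8 lower at that level, none at 0), and endothelial markers to 981 to 1169 CPM and 867 to 893 CPM (4 of 8 lower at that level, none at 0). Of the tested T cell and B cell markers, 2 of 4 and 1 of 3 were lower at that level. Skeletal muscle markers also varied among the controls, at a mean log2(CPM + 1) of 0.48 to 6.74. They were at 0.12 in knockout library 1 and 8.95 in knockout library 2, with 6 of the 10 at 0 in at least 1 library. Gpat3 was at 16.9 CPM in knockout library 1 and 19.9 CPM in knockout library 2. The part of these marker lists in the Gpat3, Gpat4 and Chpt1 values was not tested.

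**Figure D3:**
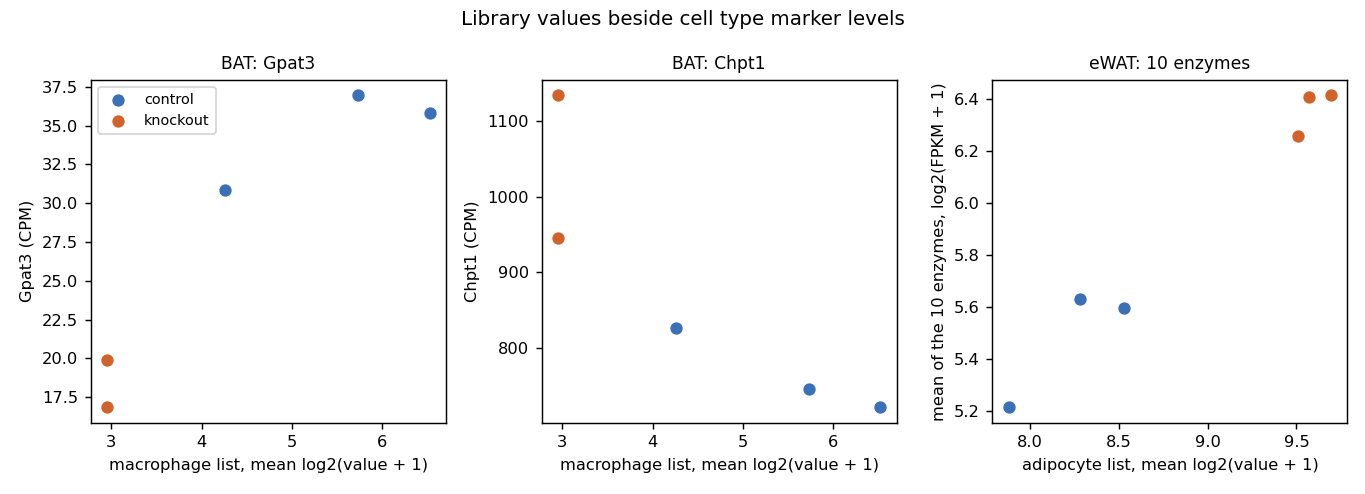
Left and middle, Gpat3 and Chpt1 (CPM) in each BAT library against the mean log2(CPM + 1) of 10 macrophage markers; right, the mean log2(FPKM + 1) of the 10 enzymes in each eWAT library against that of 10 adipocyte markers (blue control, orange knockout). In each panel the knockout libraries lie apart from the controls on both axes.

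In eWAT 7 of the 10 enzymes rose in the libraries labelled knockout and none fell: 5 of the 8 on the route from glycerol phosphate to triglyceride (Gpat3, Agpat2, Lpin1, Dgat1 and Dgat2), Mogat1 and Chpt1. Of all genes, 14.9% were called there (2041 of 13736; 10.2% higher, 4.7% lower), the median change of the 10 was 0.95 and that of all genes -0.02. Dgat2 had the largest change of the 10, from 525, 484 and 321 FPKM in control to 1159.5, 1115 and 1186 FPKM in knockout libraries. Every knockout library exceeded the highest control by more than the range of the controls, and the change was 1.41 (SE 0.19) with an adjusted p of 0.0122 (limma). Dgat1, the DGAT that also re-esterifies fatty acid released by lipolysis, rose from 56.7 ± 7.63 FPKM (n = 3) to 121 ± 10.3 FPKM (n = 3), a change of 1.08 (SE 0.12, adjusted p = 0.0122, limma). Mogat1 was at 2.64, 2.44 and 2.93 FPKM in the control and 4.55, 9.35 and 4.79 FPKM in the knockout libraries. Knockout library 2 stood well above the others, and the change of 0.92 (SE 0.24) was close to the threshold (adjusted p = 0.0489, limma; 0.0501 with TMM scaling).

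Of the acylation steps before it, Agpat2 was at 212, 209.8 and 144 FPKM in the control and 368, 392 and 461 FPKM in the knockout libraries, a change of 1.12 (SE 0.18, adjusted p = 0.0141, limma), and Gpat3 at 13.7, 12.6 and 9.42 FPKM in the control and 18.5, 29.5 and 26.2 FPKM in the knockout libraries, a change of 0.99 (SE 0.20, adjusted p = 0.0249). Lpin1 rose from 32.9 ± 6.38 FPKM (n = 3) to 53.7 ± 5.14 FPKM (n = 3) (0.70, SE 0.16, adjusted p = 0.0311, limma). Gpam, Gpat4 and Agpat3 did not pass. Gpam was at 18.0 ± 5.32 FPKM (control, n = 3) and 28.4 ± 3.27 FPKM (knockout, n = 3), a change of 0.66 (SE 0.20, adjusted p = 0.0727, limma), and Gpat4 at 20.9 ± 2.90 FPKM (control, n = 3) and 28.1 ± 1.30 FPKM (knockout, n = 3), a change of 0.42 (SE 0.11, adjusted p = 0.0512). Both had knockout libraries above each control. Agpat3, an AGPAT expressed in many tissues, had overlapping groups (0.24, SE 0.12, adjusted p = 0.208, limma). On the phospholipid branch, Chpt1 was at 165, 177 and 116 FPKM in the control and 361, 315 and 396 FPKM in the knockout libraries, with no overlap, a change of 1.24 (SE 0.18) and an adjusted p of 0.0125 (limma). The groups did not overlap for 9 of the 10 enzymes, against 41.2% of all genes (21.6% higher, 19.6% lower), and the same 9 had an unadjusted p under 0.05, against 33.9% of all genes.

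Markers of cell types moved with these values. All 10 adipocyte markers were called higher (median change 1.25), with a sum of 7554 to 9762 FPKM in control and 17987 to 22676 FPKM in knockout libraries. Of 10 macrophage markers 4 were called lower, with sums of 9065 to 16170.1 and 5577 to 7891 FPKM, and 5 of 8 endothelial markers were called higher (186 to 230.0 and 273 to 377 FPKM), with none of these 3 lists holding a marker at 0. The other 7 marker lists held no called gene. When each library was centred on its adipocyte list, which shifted the median of all genes to -1.39 and led to calls for 94.8% of them, the enzymes' changes ran from -1.13 (Agpat3) to 0.04 (Dgat2), each above that median. Relative to adipocyte markers, Gpam (-0.70), Gpat4 (-0.95), Agpat3 and Lpin1 (-0.66) were then called lower, while Dgat2, Chpt1 (-0.12), Agpat2 (-0.24), Dgat1 (-0.28), Gpat3 (-0.38) and Mogat1 (-0.44) were not called. Without knockout library 3, 12 of 14031 genes and 0 of the 10 enzymes were called, with the Dgat2 change at 1.39 (adjusted p = 0.0695, limma) and Chpt1 at 1.16 (0.0706). A separate table of the same 6 samples in TPM gave 0 calls among the 10, a Dgat2 change of 2.63 (SE 1.74) and a Gpam change of -0.53 (SE 1.57). With the TPM values the median change of all genes was itself 0.65, and that of the 10 was 1.61. The 2 tables differ widely: the same sample correlated between them at a Pearson's r of 0.57 to 0.87 on the log2(value + 1) scale. Samples correlated with each other at 0.54 to 0.92 within the TPM table and at 0.94 to 0.99 within the FPKM table. The signs of the TPM changes are thus poorly determined.

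**Figure D4:**
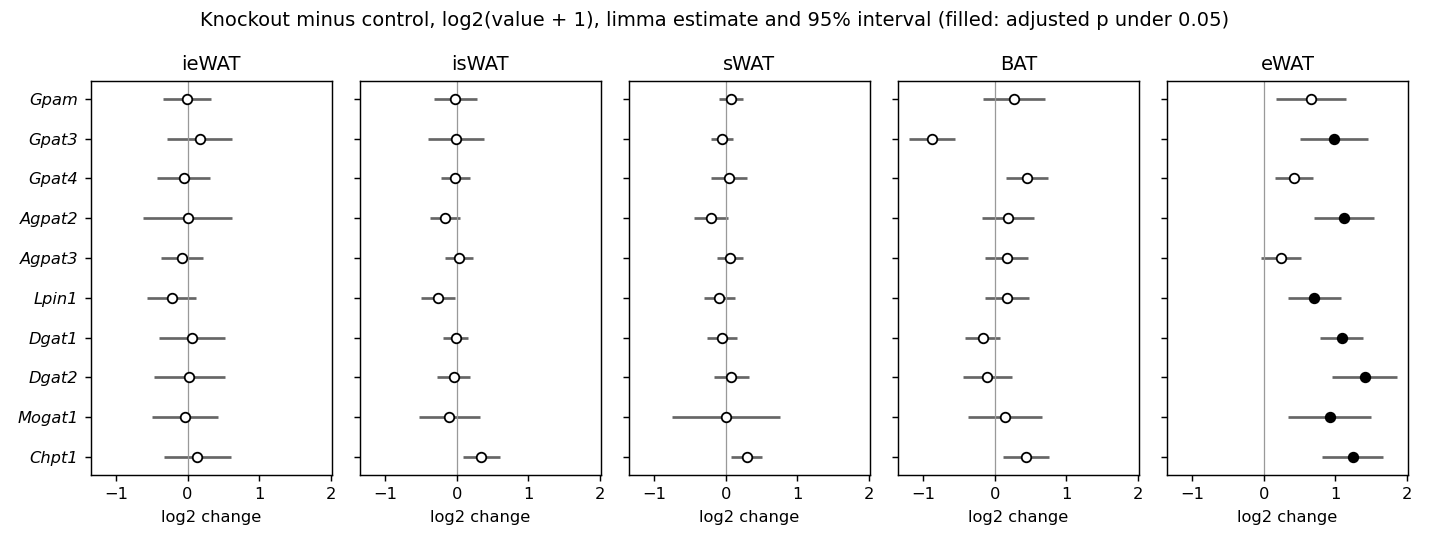
Change of each enzyme in each depot, as the knockout minus the control level in log2(value + 1) (points are limma estimates, bars 95% intervals; filled points have an adjusted p under 0.05). In ieWAT all intervals include 0. Those of Chpt1 and Lpin1 in isWAT, Chpt1 in sWAT and Gpat3, Gpat4 and Chpt1 in BAT do not, and in eWAT 7 points are filled.

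Chpt1 had higher values without overlap in isWAT, sWAT, BAT and eWAT and a change of 0.13 (SE 0.20) with overlapping groups in ieWAT. Of all genes, 12.2%, 3.8%, 6.37% and 21.6% were higher without overlap in isWAT, sWAT, BAT and eWAT. The share higher in all 4 was not computed, so the recurrence has no background. In eWAT the Chpt1 change was -0.12 after centring on the adipocyte list, beside the median of -1.39 for all genes. Agpat2 was lower without overlap in isWAT and sWAT, higher in eWAT (-0.24 after that centring), and overlapping in ieWAT and BAT. The promoters of these 2 genes are shown because the Chpt1 values lay on the higher side in most depots while those of Agpat2 differed in direction, a choice made after their values were seen. Each is the RefSeq window from 250 bases before to 50 after the start of the gene (GRCm38.p6), chr10:88503921-88504220 on the minus strand for Chpt1 and chr2:26604368-26604667 on the minus strand for Agpat2, in lower case with motif matches in capitals.
Chpt1: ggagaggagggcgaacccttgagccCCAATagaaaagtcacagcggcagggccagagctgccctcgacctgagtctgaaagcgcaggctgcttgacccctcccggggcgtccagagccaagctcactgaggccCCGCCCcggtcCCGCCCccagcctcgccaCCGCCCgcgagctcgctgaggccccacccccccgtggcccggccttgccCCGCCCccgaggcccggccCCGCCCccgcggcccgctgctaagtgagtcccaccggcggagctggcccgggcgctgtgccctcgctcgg
Agpat2: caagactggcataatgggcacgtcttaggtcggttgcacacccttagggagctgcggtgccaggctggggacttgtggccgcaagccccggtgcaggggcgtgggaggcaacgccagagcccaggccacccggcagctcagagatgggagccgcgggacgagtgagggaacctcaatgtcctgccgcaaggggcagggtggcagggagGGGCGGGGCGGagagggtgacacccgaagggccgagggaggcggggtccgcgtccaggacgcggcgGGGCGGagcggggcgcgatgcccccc
Motifs were searched on both strands, and matches of 1 motif may overlap. The GC box was GGGCGG. A match on the other strand reads CCGCCC in the lines above. The E-box was CACGTG. The other motifs were the CCAAT box, searched by these letters, and a TATA box. It was searched as TATAAA. The Chpt1 window holds 5 GC boxes and 1 CCAAT box, and the Agpat2 window 3 GC boxes, 2 of which overlap. Of 32851 promoter windows, 35.7% hold a GC box, 37.4% a CCAAT box, 13.6% a TATA box and 7.15% this E-box, and neither window holds the last 2 motifs. The matches are a description of these letters.

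Reads of 4 of the enzymes could be shared with neighbouring genes, and the counting is not stated to use strand. In GENCODE M21, 7.93% of the exon bases of Chpt1 overlap exons of Sycp3, a meiotic gene on the other strand, and 12.4% of its 31-base words also occur in transcripts of other genes. Of the exon bases of Gpat3, 30.0% overlap the antisense gene 4930458D05Rik and 7.40% overlap Gm42987, which lies on the same strand as Gpat3. The mean of Sycp3 rose without overlap of the groups, like Chpt1, in isWAT (7.36 to 13.3 CPM) and eWAT (24.4 to 60.1 FPKM). The rise in eWAT passed (adjusted p = 0.0432, limma). Its groups overlapped in ieWAT (means of 19.3 and 25.2 CPM), sWAT (26.3 and 17.8 CPM) and BAT (3.63 and 3.12 CPM). In sWAT the knockout libraries ran from 5.79 to 30.9 CPM and the controls from 23.7 to 28.7 CPM. The part of Sycp3 reads in the Chpt1 values was not tested. The antisense gene of Gpat3 went from 2.02 to 1.35 CPM in BAT and from 0.66 to 1.07 FPKM in eWAT, the direction of Gpat3 in each. Its groups did not overlap in BAT (control 1.78 to 2.45 CPM, knockout 1.17 to 1.54 CPM) or eWAT. In eWAT it was below the filter on low values (0.52 to 0.85 and 0.95 to 1.30 FPKM). In isWAT it was also higher without overlap (3.28 to 3.50 and 3.87 to 3.94 CPM), where the Gpat3 groups overlapped. Gpat3 itself was at 16.9 CPM or more in BAT. The part of antisense reads in the Gpat3 values was not tested. For Mogat1, 12.8% of exon bases overlap BC035947, and for Agpat2, 3.00% overlap Egfl7, an endothelial gene that went from 52.5 to 98.4 FPKM in eWAT. The values of these 4 enzymes carry that uncertainty.

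Differences between depots in the knockout change were tested for the pairs that share a design axis, and none of the 10 enzymes passed in any of them (limma interaction, 0%, 0% and 0.00786% of all genes called for sWAT minus isWAT, ieWAT minus isWAT and BAT minus sWAT). At an unadjusted p under 0.05 there were 0, 0 and 2 (Gpat3 and Gpat4), against 7.76%, 2.95% and 12.3% of all genes. Between constitutive and inducible knockout in subcutaneous fat, the Chpt1 changes of 0.29 and 0.34 differed by -0.05, with a 95% interval of -0.37 to 0.27. The Agpat2 changes differed by -0.04 (-0.35 to 0.27). Between epididymal and subcutaneous fat of the inducible sets, the Chpt1 changes differed by -0.21 (-0.79 to 0.37), so the overlap of the groups in ieWAT does not show a different response. Between BAT and sWAT, Gpat3 differed most, by -0.82 (-1.12 to -0.52; adjusted p = 0.237). Without BAT control library 2 this difference was -0.90 and passed (adjusted p = 0.00548, limma; 7.77% of all genes called).

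The genes around these enzymes in the pathway, 47 in 6 lists, gave calls in eWAT alone among the limma fits: 0 passed in ieWAT (of 46 tested), isWAT (45), sWAT (43) and BAT (43), where 0, 4, 4 and 8 had an unadjusted p under 0.05 (beside 2.62%, 13.1%, 9.66% and 19.2% of all genes), and in eWAT 8 of 42 passed higher and 2 lower (beside 10.2% and 4.7% of all genes). On recovered reads edgeR called 0 of these genes in the 4 CPM sets. DESeq2 called Crls1 and Gpd1 in BAT (2 of 43, beside 5.97% of all genes) and 0 in the others. Of 5 genes of glycerol phosphate supply, 3 rose in eWAT: Gpd1, which makes glycerol phosphate from a glycolytic intermediate, from 216 ± 30.4 FPKM (n = 3) to 479.7 ± 77.2 FPKM (n = 3) (1.15, SE 0.16), Pck1, the enzyme of glyceroneogenesis (1.14, SE 0.17), and Aqp7, the glycerol channel of adipocytes (1.12, SE 0.17). In BAT Gpd1 was at 4539 ± 997 CPM (control, n = 3) and 7245 ± 1066 CPM (knockout, n = 2), without overlap and without passing (0.69, SE 0.21, adjusted p = 0.237, limma). Among 10 tested isoforms of the acylation and phosphatase steps, Mogat2, a close relative of Mogat1, rose from 2.81 ± 0.259 FPKM (n = 3) to 11.7 ± 2.69 FPKM (n = 3) (1.72, SE 0.17) and the lipid phosphate phosphatase Plpp3 rose by 0.48 (SE 0.08), while Lpin2 fell from 9.94 ± 0.755 FPKM (n = 3) to 6.48 ± 0.176 FPKM (n = 3) (-0.55, SE 0.08), opposite to Lpin1. Of 4 genes of lipid droplet assembly at the endoplasmic reticulum 3 were tested in eWAT, and seipin (Bscl2, 0.99, SE 0.13) and Fitm2 (1.12, SE 0.18) rose, while Tmem159 was at -0.09 (SE 0.09).

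In the phospholipid lists 2 genes passed in eWAT. Of 8 tested genes of the choline and ethanolamine branch Pemt, which methylates phosphatidylethanolamine to phosphatidylcholine, passed in eWAT (0.76, SE 0.10), and Pcyt1a, the rate-limiting enzyme that supplies the CDP-choline used by Chpt1, was at 35.6 ± 5.28 FPKM (control, n = 3) and 29.4 ± 2.42 FPKM (knockout, n = 3) (-0.26, SE 0.12). In BAT, Pcyt1a was at 68.9 ± 5.11 CPM (control, n = 3) and 69.0 ± 3.62 CPM (knockout, n = 2), beside the higher Chpt1. None of 10 genes of the CDP-diacylglycerol branch passed in eWAT by limma, where 5 of them had an unadjusted p under 0.05, beside 33.9% of all genes. Its cardiolipin synthase Crls1 had values without overlap in isWAT (0.31, SE 0.10), BAT (0.52, SE 0.13) and eWAT (0.22, SE 0.09), higher in each and not called by limma. Higher values without overlap were held by 12.2%, 6.37% and 21.6% of all genes there, and the recurrence has no background. The branch held 2 genes higher and 2 lower without overlap in isWAT, 3 and 2 in BAT, and 5 and 1 in eWAT. Its most abundant member, the synthase Cds2, was at -0.23 (SE 0.08) in isWAT and -0.28 (SE 0.08) in eWAT. Of the lysophospholipid acyltransferases, Lpcat2, an enzyme abundant in macrophages, fell in eWAT (-0.88, SE 0.20, adjusted p = 0.0335, limma), and was at -0.78 (SE 0.18) in sWAT and 0.39 (SE 0.21) in ieWAT without passing. Lpcat3, the most abundant of them, was at -0.23 (SE 0.12) in ieWAT and 0.28 (SE 0.14) in eWAT, and Lpcat1 at -0.29 (SE 0.10) in sWAT, none past the threshold.

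Within groups, the enzymes also varied together to different degrees. Over deviations of the 28 libraries from the mean of their own depot and group, Pearson's r was highest for Agpat2 with Dgat1 (0.90) and lowest for Mogat1 with Chpt1 (-0.27) among the 45 pairs. Among 12149 genes, the 3 most like Dgat2 were Fitm2 (0.88), Pfkfb3 (0.88), Tom1l1 (0.86), and those most like Agpat2 were Fam69b (0.93), Prkaca (0.91), Adig (0.90). For Chpt1 they were D3Ertd751e (0.84), Hsdl2 (0.84), Tspan12 (0.83). Libraries share depth and tissue composition, so these r values describe the libraries only.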

How the data were processed

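The deposited tables of ieWAT, isWAT, sWAT and BAT, although named FPKM, hold CPM as deposited: at least 99.99% of values were whole multiples of 1 read within 0.01 reads. The deposited eWAT table holds FPKM, and another deposited table of the same 6 samples holds TPM and served as an alternative. 1 further table was not used. Per the submitters' processing notes the authors used Salmon, DESeq2 1.38.3, FastQC and MultiQC, without roles. Which aligner, build and annotation served is not stated there. Symbols came from GENCODE M21 by identifier (92.0% matched, 96.0% in ieWAT). Each depot was fitted alone with limma 3.58.1 (R 4.3.3; trend and robust, two-sided) on log2(value + 1), a scale that understates changes of low genes, over genes that reached 1 in at least the number of libraries of the smaller group, with Benjamini-Hochberg adjustment and a threshold of 0.05. Interaction fits compared changes between depots. edgeR 4.0.16 and DESeq2 1.42.0 on recovered reads, other scalings, filters and pseudocounts, a replicate block and leaving out each library were alternatives. The fits were tested on simulated data: changes came back with the right sign and nearly full size, calls were few in BAT for genes changed 2-fold, and in some depots unchanged genes made up more of the calls than the threshold implies. Members and lists were chosen with earlier results of these data known. Named genes are the members, Fgf13 and, of the pathway lists, genes past the threshold, the most abundant of each list and the 2 with the smallest p per depot, and the marker genes Adipoq and Ucp1 were named as a check of tissue.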

Additional observations from a re-analysis of the deposited data

Results flagged for a closer look

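For 4 of the 10 enzymes, 6 comparisons between depots in all, values lay in opposite directions with no overlap of groups in either depot, and these differences were not tested. They fall in 4 pairs of depots, and of all genes tested in both depots such a pattern was held by 6.98% for BAT with eWAT (2 of the 10 enzymes), 5.39% for BAT with isWAT (1), 5.22% for isWAT with eWAT (2) and 1.47% for sWAT with eWAT (1). Gpat3 was lower in BAT and higher in eWAT, the 2 log2 changes differing by -1.86. Agpat2 was lower in isWAT and sWAT and higher in eWAT, with differences of -1.29 and -1.33. Lpin1 was lower in isWAT and higher in BAT and eWAT, with differences of -0.43 and -0.96. Dgat1 was lower in BAT and higher in eWAT, with a difference of -1.25, and its direction in BAT turned with TMM scaling. In 5 of these 6 comparisons one depot is eWAT, where values are FPKM and Fgf13 was not lower.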

How the results depend on the processing

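With the replicate number as a block, 0 of the 10 enzymes and 0% of all genes were called in eWAT, against 7 and 14.9%. The block changed no other count of enzymes called. The numbers were not taken to pair control and knockout libraries, and whether they do is not settled. Deviations of same-numbered libraries from their group means correlated at -0.56 to 0.39. Both ends are from isWAT and BAT, where the deviations of the 2 knockout libraries mirror each other, so these values cannot show a pairing. In ieWAT the values ran from -0.39 to 0.14 and in eWAT from -0.32 to 0.06. In eWAT, 8 enzymes were called with array weights (28.1% of all genes), 4 with no filter on low values (1.85%), 4, all lower, when centred on the adipocyte list (94.8%, nearly all lower) and 0 with the TPM table (0.00848%), and leaving out 1 library gave 0 (without knockout library 3, 0.0855%) to 7 (without control library 1, 13%). In BAT, 4 were called with array weights (21.7% of all genes), 3 with DESeq2 (5.97%), and 0 to 3 when 1 library was left out (3 without control library 2, 16.8%). For the BAT minus sWAT difference, leaving out 1 library gave 0 to 1 enzymes called (1 without BAT control library 2). The cause of these changes was not tested. Directions reversed as follows. Centred on the adipocyte list, which shifts all genes in eWAT (median -1.39), the eWAT changes were Gpam -0.70, Gpat3 -0.38, Gpat4 -0.95, Agpat2 -0.24, Agpat3 -1.13, Lpin1 -0.66, Dgat1 -0.28, Mogat1 -0.44 and Chpt1 -0.12, the sWAT change of Gpam was -0.051 and the BAT change of Dgat1 0.070. Dgat1 in BAT was 0.036 with TMM scaling, 0.038 with edgeR and 0.035 with DESeq2. Agpat2 in BAT ran from -0.0084 (without knockout library 2) to 0.38 (without knockout library 1) when 1 library was left out. With the TPM table, Gpam was -0.53 (SE 1.57) and Agpat3 -0.0014 (SE 1.66) in eWAT, where the median of all genes was 0.65. A further 32 member values were smaller than 1 SE and not called. Their 527 alternatives include 80 with the other sign, at most 0.26 in size, which were not counted as reversed, a rule set after seeing the data. For single genes the interaction alternatives cover Gpat3, Gpat4 and Chpt1, also chosen after seeing values. The count of enzymes called in ieWAT, isWAT and sWAT was 0 under each alternative run. Depth is not known for eWAT, and a simulated 2-fold change in BAT was often missed, so the absence of calls there does not show that enzymes did not change.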
